A study of Mus musculus with 4 samples.

Results

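The 9 genes described here, Mvk, Pmvk, Mvd, Idi1, Fdps, Sqle, Tm7sf2, Sc5d and Dhcr7, encode enzymes that turn mevalonate into cholesterol. They were chosen by gene name from a deposited table of 5282 mouse genes, and all 9 had 1 row each. RNA was measured by sequencing in dissected corpus callosum and cortex pooled as 1 tissue at postnatal day 15. The comparison has 2 groups of 2 samples each. One carried Pdgfra-creER;SmoM2 and the other was labelled wild type (WT), and both had received tamoxifen between postnatal days 5 and 7. SmoM2 is a mutant Smoothened that signals without ligand; Smoothened relays the hedgehog signal across the membrane. Pdgfra-creER is a tamoxifen-activated Cre recombinase driven by Pdgfra, a gene of oligodendrocyte precursors, and it is also active in Pdgfra-expressing cells outside that lineage. The labels do not say whether WT animals carried the Cre, nor whether each sample was 1 animal, so the spread between samples may be technical. The authors kept in their table genes with an unadjusted p of at most 0.05, the highest being 0.049997, so each enzyme here had already met that condition on the same samples.

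Cholesterol hardly crosses from blood into the brain and is made there, by glia above all, and myelin membrane is rich in it. In the mevalonate pathway, mevalonate is phosphorylated, decarboxylated to isopentenyl diphosphate and joined into farnesyl diphosphate. The sterol pathway then makes squalene, oxidises and cyclises it, and trims the resulting sterol to cholesterol. The genes share a transcriptional regulator, the sterol-sensing SREBP factors, which act at promoters together with NF-Y and Sp1. Sterols also bind Smoothened itself, which is a known link between this pathway and hedgehog signalling.

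In SmoM2 samples 7 of the 9 enzymes were higher and 2 were lower. Mvk, Mvd and Dhcr7 rose, Idi1 and Sc5d fell, and Pmvk, Fdps, Sqle and Tm7sf2 were higher without passing the test. Here and below, "rose" and "fell" mean that the authors' deposited table gives the gene an adjusted p no higher than 0.05. The 5 calls among 9 stand beside 37.3% of all listed genes called, the 3 rises beside 21.3% and the 2 falls beside 16.0%. With the threshold at 0.01 there were 3 calls beside 22.9%, and at 0.1 there were 6 beside 47.7%. Any difference above 0 was found for 7 of the 9 beside 53.2%, and below 0 for 2 beside 46.8%. The 2 genes that fell sat inside the pathway, each directly next to one that rose: Idi1 acts after Mvd, and Sc5d makes the sterol that Dhcr7 uses.

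The start regions of the 5 called genes are shown as RefSeq lists them on GRCm38.p6. Each runs from 250 bases before to 50 bases after a transcript start. Capitals mark matches to the motifs searched on both strands: CCAAT (the NF-Y box), GGGCGG (the Sp1 box) and CACGTG (an E-box). Mvk is chr5:114444019-114444318 (+ strand), Mvd chr8:122443373-122443672 (- strand), Idi1 chr13:8885356-8885655 (+ strand), Sc5d chr9:42264251-42264550 (- strand) and Dhcr7, at the third of its 3 starts, chr7:143829964-143830263 (+ strand).
Mvk (rose): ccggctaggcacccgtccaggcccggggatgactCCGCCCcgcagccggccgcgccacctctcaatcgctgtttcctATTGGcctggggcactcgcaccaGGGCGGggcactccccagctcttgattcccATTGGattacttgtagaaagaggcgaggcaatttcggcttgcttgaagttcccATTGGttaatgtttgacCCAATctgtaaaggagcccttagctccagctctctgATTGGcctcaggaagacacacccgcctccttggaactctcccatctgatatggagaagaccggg
Mvd (rose): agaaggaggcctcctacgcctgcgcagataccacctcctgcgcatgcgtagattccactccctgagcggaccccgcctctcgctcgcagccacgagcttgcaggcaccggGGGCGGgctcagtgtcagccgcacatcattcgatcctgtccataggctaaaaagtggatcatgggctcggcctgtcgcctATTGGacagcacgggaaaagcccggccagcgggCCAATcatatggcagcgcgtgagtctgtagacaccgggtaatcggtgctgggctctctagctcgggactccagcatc
Dhcr7 (rose): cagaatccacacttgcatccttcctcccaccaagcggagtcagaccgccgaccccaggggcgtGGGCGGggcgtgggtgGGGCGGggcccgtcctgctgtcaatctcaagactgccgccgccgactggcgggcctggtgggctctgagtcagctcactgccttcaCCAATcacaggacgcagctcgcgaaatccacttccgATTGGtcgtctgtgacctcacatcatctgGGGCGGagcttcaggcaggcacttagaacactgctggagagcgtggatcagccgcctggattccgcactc
Idi1 (fell): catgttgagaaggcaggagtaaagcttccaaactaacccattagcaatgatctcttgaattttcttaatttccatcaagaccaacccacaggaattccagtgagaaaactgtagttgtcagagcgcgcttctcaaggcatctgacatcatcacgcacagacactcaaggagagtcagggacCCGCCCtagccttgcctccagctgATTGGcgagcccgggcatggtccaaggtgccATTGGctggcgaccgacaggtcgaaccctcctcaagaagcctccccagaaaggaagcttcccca
Sc5d (fell): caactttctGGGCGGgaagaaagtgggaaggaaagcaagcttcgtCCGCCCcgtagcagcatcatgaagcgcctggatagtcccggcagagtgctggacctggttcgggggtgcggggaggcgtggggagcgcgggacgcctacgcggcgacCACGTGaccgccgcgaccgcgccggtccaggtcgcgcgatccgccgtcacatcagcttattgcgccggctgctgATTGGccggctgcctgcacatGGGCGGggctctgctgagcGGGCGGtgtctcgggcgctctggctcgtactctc

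The 5 windows above each held a CCAAT box and a GGGCGG box, those of the 2 genes that fell included. Whether any match bears on the differences in level was not tested. For Dhcr7 this depends on the start: the third window was picked for display after the matches were seen, while the first and the second windows had no CCAAT and the second no GGGCGG. The table had windows for 7 of the 9 enzymes, 10 windows in all, and none for Fdps or Sqle. A CCAAT match lay in 7 of the 10 windows, whereas 37.4% of all 32851 promoter windows held one. All 7 genes had a match in at least 1 window, a count by gene that has no share over all genes beside it. Mvk had 5 CCAAT matches, a number reached by 0.271% of all windows, and Mvd, Idi1 and the third Dhcr7 window had 2 each, which 11.7% reached. A GGGCGG match was found in 7 of the 10 windows and in 35.7% of all windows, and CACGTG in 2 of the 10, of Sc5d and of Dhcr7, and in 7.15% of all. The core of the sterol response element, searched as TCACNCCAC, and the Gli site GACCACCCA had no exact match in the 10 windows, and 1.24% and 0.253% of all windows held them. These are matches of letters, and no motif overlapped another. The share of G and C bases ran from 48.7% to 68.3% over the 10 windows, most of them above the 52.7% median of all promoters. The shares of windows with a match were not adjusted for it. The Idi1 window starts from a RefSeq start 105 bases from the nearest GENCODE M21 start, and those of Sc5d and the third Dhcr7 start from points 44 and 20 bases away. The second Dhcr7 window, which holds 1 of the CACGTG matches, starts 232 bases from the nearest, the farthest of the 10.

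**Figure D1:**
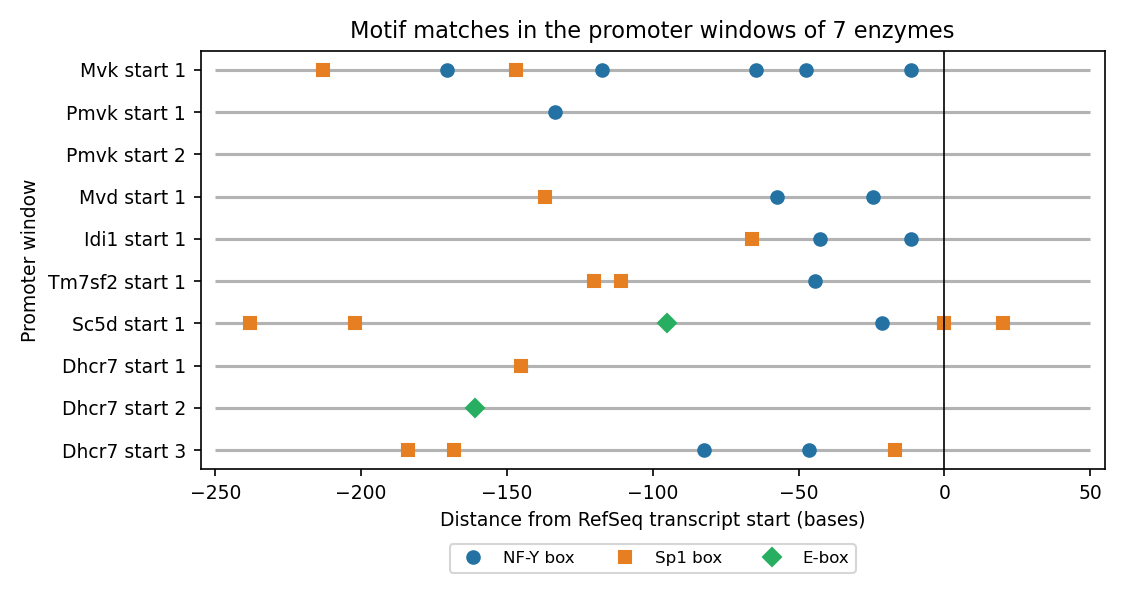
Motif matches by distance in bases from the RefSeq transcript start (x axis) in the 10 promoter windows of 7 enzymes (rows). Circles are CCAAT boxes, squares GGGCGG boxes and diamonds CACGTG; the genes that rose and the genes that fell both have CCAAT boxes in the last stretch before the start.

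Mevalonate kinase, encoded by Mvk, adds the first phosphate to mevalonate. Mvk (ENSMUSG00000041939, GRCm38 chromosome 5, 114444269 to 114460591) read 57.78 and 66.46 in SmoM2 replicates 1 and 2 and 43.52 and 39.41 in WT replicates 1 and 2. These values are expression levels, judged from their size to be scaled by gene length and by library; the labels do not say whether TPM or FPKM. Both SmoM2 samples were above both WT samples, the nearest pair differing 1.33-fold. Group means were 62.1 ± 6.14 (SmoM2) and 41.5 ± 2.91 (WT; SD, n = 2 each). In the authors' deposited table the log2 fold change was 0.51 (adjusted p = 0.00132).

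Pmvk encodes phosphomevalonate kinase, which adds the second phosphate. Pmvk (ENSMUSG00000027952, chromosome 3, 89454541 to 89469013) read 80.05 and 84.29 in SmoM2, against 68.99 and 62.98 in WT. Its groups did not overlap, yet in the authors' deposited table it had the smallest log2 fold change of the 7 higher enzymes, 0.24 (adjusted p = 0.457).

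Mvd had the largest difference of the 9. Its product decarboxylates mevalonate diphosphate to isopentenyl diphosphate, the building block of all isoprenoids. Mvd (ENSMUSG00000006517, chromosome 8, 122433601 to 122443422) read 60.34 and 64.28 in SmoM2, against 40.60 and 34.72 in WT, a 1.65-fold difference of the means. The lower SmoM2 sample was 1.49 times the higher WT sample, the widest gap of the 8 enzymes whose groups did not overlap. In the authors' deposited table the log2 fold change of Mvd was 0.65 (adjusted p = 2.95e-06), and 16.7% of all listed genes had a higher one.

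Idi1 encodes the isomerase that turns isopentenyl diphosphate into its reactive isomer, dimethylallyl diphosphate. Idi1 (ENSMUSG00000058258, chromosome 13, 8885501 to 8892451) read 52.33 and 42.63 in SmoM2, against 51.73 and 68.46 in WT. It was the 1 enzyme of the 9 whose groups overlapped: SmoM2 replicate 1 and WT replicate 1 were nearly equal. Group means were 47.5 ± 6.86 (SmoM2) and 60.1 ± 11.8 (WT; SD, n = 2 each). In the authors' deposited table the log2 fold change was -0.40 (adjusted p = 0.0107). On the levels, its limma log2 difference of -0.33 was -0.13 without WT replicate 2, -0.18 without SmoM2 replicate 2 and -0.53 without WT replicate 1.

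Fdps encodes farnesyl diphosphate synthase, whose product is shared by sterols, dolichol, ubiquinone and prenylated proteins. Fdps (ENSMUSG00000059743, chromosome 3, 89093588 to 89101959) read 188.93 and 213.28 in SmoM2, against 165.17 and 146.94 in WT, and its groups did not overlap. It had the highest level of the 9 in every sample, and ranked 373 among the 5282 listed genes by mean level. Its log2 fold change was 0.29 (adjusted p = 0.142) by the authors' deposited table.

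Of the 4 sterol pathway enzymes, Sqle comes first. It encodes squalene epoxidase, the oxygen-dependent and rate-controlling step after squalene. Sqle (ENSMUSG00000022351, chromosome 15, 59315077 to 59331192) read 94.01 and 99.36 in SmoM2, against 76.46 and 77.75 in WT. Replicates lay close together and the groups were apart, while in the authors' deposited table the log2 fold change was 0.25 (adjusted p = 0.258).

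Tm7sf2 encodes a sterol reductase that removes the double bond left when lanosterol loses its methyl group, a reaction that the lamin B receptor also performs. Tm7sf2 (ENSMUSG00000024799, chromosome 19, 6062821 to 6068373) read 63.17 and 63.58 in SmoM2, against 51.60 and 48.60 in WT. The groups did not overlap. In the authors' deposited table its log2 fold change was 0.35 (adjusted p = 0.0934), the nearest to the threshold of the 4 that missed it. Its span overlaps Vps51 on the same strand, Mvd overlaps Gm20388 and Idi1 overlaps Gm48574 on the opposite strand, and Fdps overlaps Gm43738 and Gm22935. The use of strand in counting and the assignment of shared reads are not given in the sources used here.

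Sc5d encodes the desaturase that turns lathosterol into 7-dehydrocholesterol. Sc5d (ENSMUSG00000032018, chromosome 9, 42251595 to 42264256) read 35.15 and 30.15 in SmoM2, against 42.18 and 42.46 in WT. Both SmoM2 samples were below both WT samples, the nearest pair differing 1.20-fold. Group means were 32.7 ± 3.54 (SmoM2) and 42.3 ± 0.198 (WT; SD, n = 2 each). In the authors' deposited table the log2 fold change was -0.38 (adjusted p = 0.0196).

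Dhcr7 encodes the reductase that makes cholesterol from 7-dehydrocholesterol, and its loss in humans causes Smith-Lemli-Opitz syndrome. Dhcr7 (ENSMUSG00000058454, chromosome 7, 143823145 to 143848410) read 56.77 and 61.52 in SmoM2, against 40.62 and 41.09 in WT. The lower SmoM2 sample was 1.38 times the higher WT sample. Group means were 59.1 ± 3.36 (SmoM2) and 40.9 ± 0.332 (WT; SD, n = 2 each). The log2 fold change was 0.47 (adjusted p = 0.00111) by the authors' deposited table.

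**Figure D2:**
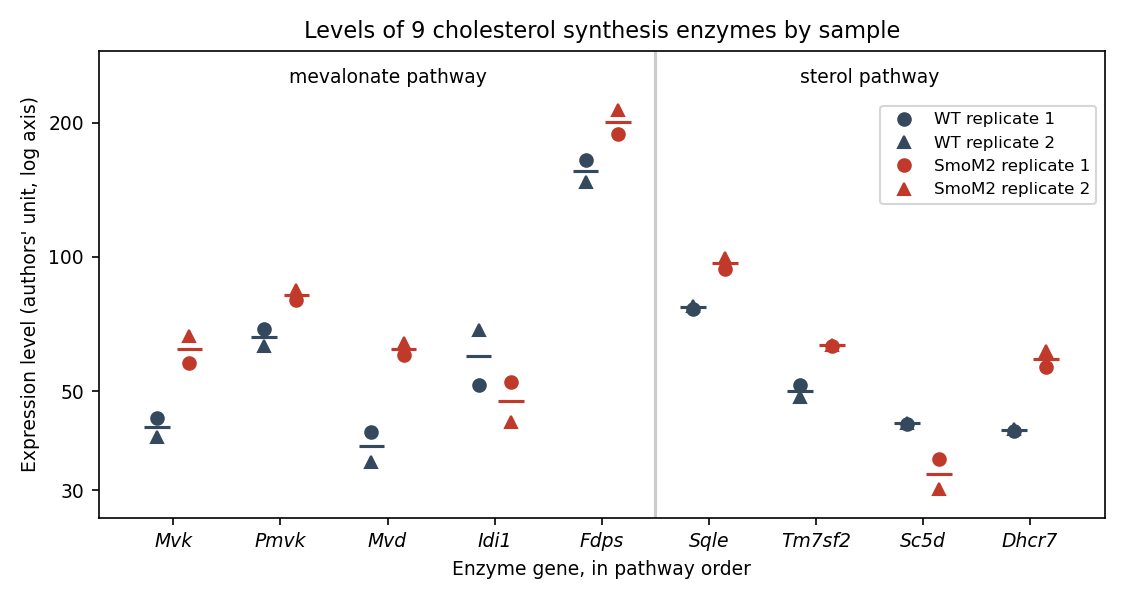
Expression level on a log axis (authors' unit) of the 9 enzymes in pathway order, with 1 point for each sample and a short line at each group's mean. SmoM2 points lie above WT points for 7 enzymes and below them for Sc5d, and for Idi1 the 2 groups overlap, with SmoM2 replicate 1 at 52.33 and WT replicate 1 at 51.73.

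Non-overlapping groups were common in this table: 8 of the 9 enzymes had them, beside 84.7% of all listed genes, 7 of them higher beside 49.5%, and 1 lower beside 35.2%. By the authors' deposited table, the 9 had a median log2 fold change of 0.29, and all listed genes, themselves kept by p, one of 0.23. With 2 samples against 2, an exact permutation test of a single gene cannot go below a two-sided p of 0.333.

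A recalculation from the levels with limma gave no call among the 9 (0 of 9, adjusted p from 0.258 to 1), beside 0.124% of the 4845 genes fitted. At an unadjusted limma p under 0.05 there were 8 of the 9, beside 55.5% of the fitted genes. The calls above therefore rest on the authors' own test. The limma log2 differences, SmoM2 minus WT on the log2(level + 1) scale, were 0.57 ± 0.12 for Mvk, 0.72 ± 0.11 for Mvd and 0.52 ± 0.10 for Dhcr7 (SE). They were -0.33 ± 0.17 for Idi1 and -0.37 ± 0.11 for Sc5d, and lay between 0.31 and 0.36 for the other 4.

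The scale matters for those 4. The median limma log2 difference of all fitted genes was 0.25 on the levels as deposited and 0.10 after median-of-ratios scaling over the listed genes, a choice made after the data were seen. Pmvk, Fdps, Sqle and Tm7sf2 were then at 0.16, 0.20, 0.16 and 0.18, so that under either scaling they stood little above the median of listed genes. Mvd, Mvk and Dhcr7 were at 0.56, 0.41 and 0.36 on that scale, and Idi1 and Sc5d at -0.48 and -0.52. All 9 had the same direction on the deposited levels, with equal medians, after quantile normalization and with median-of-ratios scaling.

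**Figure D3:**
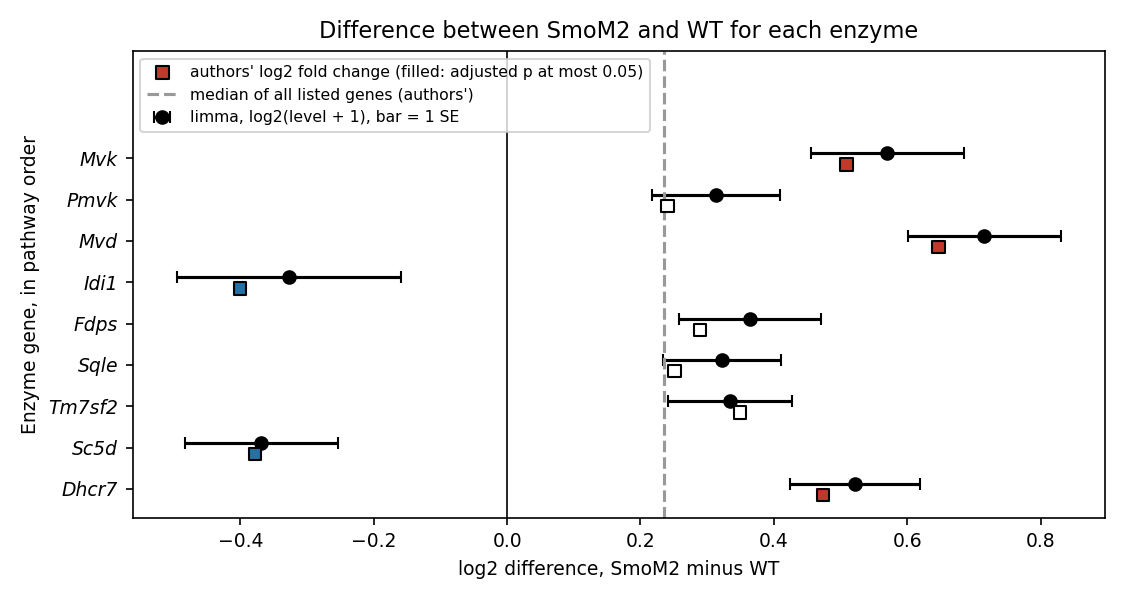
Difference between SmoM2 and WT on a log2 scale (x axis) for the 9 enzymes in pathway order (rows). Black circles with bars are limma differences with 1 SE, and squares are the authors' log2 fold changes, filled where the adjusted p was at most 0.05. The dashed line is the 0.23 median of listed genes, which were kept by p, so it is not a typical shift of all genes. Pmvk, Sqle and Fdps lie near that line, and Idi1 and Sc5d lie below 0.

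The order of the enzymes by level differed between the groups. In WT, Mvd had the lowest mean level at 37.7, followed by Dhcr7 at 40.9, Mvk at 41.5 and Sc5d at 42.3. Dhcr7, Mvk and Sc5d overlapped their neighbours in that order, and Mvd and Dhcr7 were separated by 40.60 against 40.62. Tm7sf2 at 50.1, Idi1 at 60.1, Pmvk at 66.0, Sqle at 77.1 and Fdps at 156.1 followed, and of these Idi1 and Pmvk overlapped. In SmoM2, Sc5d was lowest at 32.7, then Idi1 at 47.5, and both stood apart from their neighbours. Dhcr7 at 59.1, Mvk at 62.1, Mvd at 62.3 and Tm7sf2 at 63.4 each overlapped the next, and Pmvk at 82.2, Sqle at 96.7 and Fdps at 201.1 stood apart. The 4 enzymes that lay between 37.7 and 42.3 in WT thus ranged from 32.7 to 62.3 in SmoM2. Summed over the 9, the level was 689 and 726 in SmoM2, against 581 and 562 in WT, a 1.24-fold difference of the means. Fdps was the largest part of that sum. On the same levels the median limma log2 difference of all fitted genes was 0.25. The summed level of all listed genes was 491481 and 469062 in SmoM2, against 508519 and 512833 in WT.

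Ratios within a sample do not depend on how that sample was scaled, and they set related steps side by side. Dhcr7 over Sc5d, the last step over the one before it, was 1.62 and 2.04 in SmoM2, against 0.963 and 0.968 in WT. The pair was thus at near-equal levels in both WT samples, and Dhcr7 was the higher one in both SmoM2 samples. Mvd over Idi1, the maker of isopentenyl diphosphate over its isomerase, was 1.15 and 1.51 in SmoM2, against 0.785 and 0.507 in WT, and the larger member of the pair changed over. The differences of the mean log2 ratios were 0.91 for Dhcr7 over Sc5d and 1.06 for Mvd over Idi1.

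Enzymes that moved the same way kept closer ratios. Mvd over Fdps was 0.319 and 0.301 in SmoM2, against 0.246 and 0.236 in WT. Dhcr7 over Tm7sf2, both sterol reductases, was 0.899 and 0.968 in SmoM2, against 0.787 and 0.845 in WT. Sqle over Fdps was 0.498 and 0.466 in SmoM2, against 0.463 and 0.529 in WT, and there the groups overlapped. Of the 5 ratios compared, 4 had groups that did not overlap, and each of these had an exact permutation p of 0.333, the smallest that 2 against 2 samples allow (two-sided; 0.417 after Benjamini-Hochberg adjustment over the 5). The pairs were picked with the genes' directions known, so these ratios describe the values and test nothing.

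**Figure D4:**
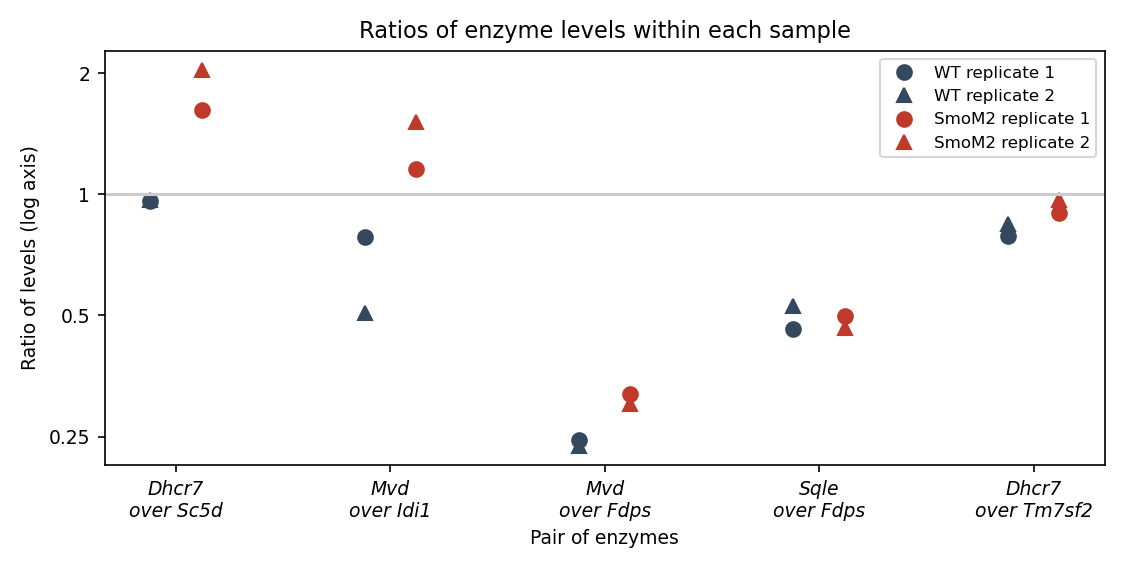
Ratio of the levels of 2 enzymes within each sample (y axis, log scale with base 2) for 5 pairs (x axis), 1 point for each sample. Dhcr7 over Sc5d lies at 0.963 and 0.968 in WT and at 1.62 and 2.04 in SmoM2, while the points of Sqle over Fdps overlap.

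The samples within a group also differed from each other. SmoM2 replicate 2 was above SmoM2 replicate 1 for the same 7 enzymes that were higher in SmoM2, and below it for Idi1 and Sc5d. Among all listed genes replicate 2 was the higher for 49.0%. In WT, replicate 1 was above replicate 2 for 5 enzymes, Mvk, Pmvk, Mvd, Fdps and Tm7sf2, beside 37.5% of all listed genes, and below it for Idi1, Sqle, Sc5d and Dhcr7. The widest gaps within a group were those of Idi1, which was 22.8% higher in replicate 1 than in replicate 2 in SmoM2, while its WT replicate 1 was 24.4% below WT replicate 2 (-24.4%).

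Around these 9 enzymes, other genes of sterol and isoprenoid metabolism were counted from lists of fixed membership. The mevalonate and sterol lists, as used here, hold 19 enzymes, of which 10 had a row. Besides the 9, this was Hsd17b7, a ketosteroid reductase, which did not pass. Hsd17b7 read 9.75 and 10.57 in SmoM2, against 11.97 and 11.51 in WT. Acat2, Hmgcs1, Fdft1, Lss, Cyp51, Lbr, Msmo1, Nsdhl and Ebp had no row and were not analysed here. By the authors' deposited table, these 10 had a median log2 fold change of 0.27.

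Acetyl-CoA is the carbon source of the pathway. Of 10 genes that supply it 5 had a row; 4 of these were higher, beside 53.2% of all listed genes, and 2, Slc25a1 and Aacs, rose, beside 21.3%. Slc25a1, the citrate carrier of mitochondria, read 77.19 and 82.26 in SmoM2, against 59.51 and 50.89 in WT. Aacs, which activates acetoacetate for lipid synthesis, read 61.95 and 66.62 against 44.76 and 44.91, with no overlap.

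Of 14 genes of the side branches, which draw isoprenoids off to prenylation, dolichol and ubiquinone, 4 had a row. All 4 were lower, beside 46.8% of all listed genes, and 2, Ggps1 and Zmpste24, fell, beside 16.0%. Ggps1, the geranylgeranyl diphosphate synthase, read 28.76 and 28.85 in SmoM2, against 29.39 and 34.13 in WT. Its groups nearly touched. The authors' deposited table gives Ggps1 a log2 fold change of -0.40, while the limma difference of its levels was -0.13, and -0.03 without WT replicate 2 and -0.24 without WT replicate 1. Zmpste24, a protease that trims farnesylated proteins, read 11.44 and 12.28 in SmoM2, against 17.76 and 15.60 in WT. For the 4 side-branch genes the authors' deposited table gives a median log2 fold change of -0.36.

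Of 15 genes that control SREBP or degrade sterol enzymes, 6 had a row; Srebf1, Srebf2 and Scap rose (3 of 6, beside 21.3% of all listed genes), and Insig2, Rnf139 and Marchf6 were lower without passing. Srebf2, the SREBP gene of sterol synthesis, read 125.63 and 117.09 in SmoM2, against 86.01 and 89.46 in WT, and Srebf1, that of fatty acid synthesis, 18.99 and 17.76 against 13.23 and 11.95. Scap, which escorts SREBP to the Golgi, read 57.92 and 65.67 against 44.80 and 42.39. Of 20 genes of sterol uptake, export and turnover, 6 had a row and all 6 were higher, beside 53.2%, and 3 rose, beside 21.3%. The lipoprotein receptor genes Lrp1 and Scarb1 rose, as did Abcg4, a sterol exporter, and the authors' deposited table puts their log2 fold changes at 0.46, 0.38 and 0.38. Without WT replicate 1 the limma difference of Lrp1 was 0.35, in place of 0.57.

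**Figure D5:**
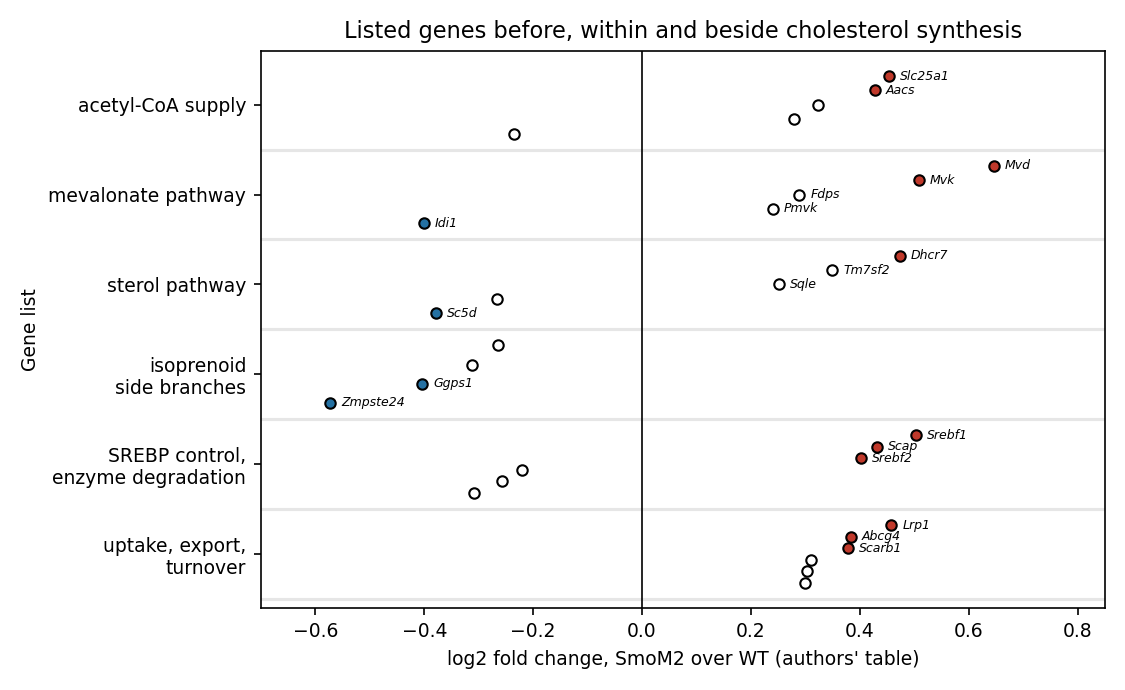
The authors' log2 fold change of SmoM2 over WT (x axis) for each gene with a row in 6 lists (rows), with filled points at an adjusted p of at most 0.05 and names at these and at the 9 enzymes. The 4 side branch genes lie below 0 and the 6 genes of uptake, export and turnover above 0, while the mevalonate and sterol lists have genes on both sides.

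Markers of several cell types differed between the groups in these tissue samples, and fewer cells of a type cannot be told apart here from less RNA in each cell. The labels name corpus callosum and cortex. How much meninges, choroid plexus or blood each sample held is not given and was not tested. Neuronal and oligodendrocyte genes such as Snap25 and Mbp were at high level in all 4 samples, as the labelled tissue would have. Among all listed genes 21.3% rose, 16.0% fell, 53.2% were higher and 46.8% lower, and the marker counts that follow stand beside these shares. Of 15 mature oligodendrocyte and myelin genes, all 15 were lower and 14 fell. Their levels summed to 3085 and 3482 in SmoM2, against 6450 and 6063 in WT. The groups of Aspa, among the 14, overlapped, at 3.17 and 7.04 in SmoM2 against 5.23 and 7.61 in WT. Its log2 fold change by the authors' deposited table was -1.11, and the limma difference of its levels -0.34 ± 0.34 (SE). The 5 of 8 precursor genes with a row were all higher and 3 rose, while Pdgfra had no row. All 9 of 10 meningeal fibroblast genes with a row rose, at sums of 1889 and 1940 against 1050 and 423. Most of that sum was Ptgds, at 1641.07 and 1727.50 against 933.18 and 312.88; without it the sums were 248 and 213 against 117 and 110. All 5 blood genes fell, at 65.6 and 120.4 against 662 and 450. The 7 choroid plexus genes were lower and 5 fell, at 77.6 and 630.9 in the SmoM2 replicates and 1224 and 1189 in WT. Nearly all of these sums was Ttr, at 71.24 and 618.04 in SmoM2 against 1202.66 and 1162.48 in WT. Astrocytes make much of the brain's cholesterol. Of 10 astrocyte genes 6 had a row, with sums of 1336 and 1229 against 1464 and 1332. Gfap and Aqp4 rose and Slc1a2 and Gjb6 fell. The groups of Gjb6 overlapped, at 59.05 and 37.78 in SmoM2 against 61.77 and 49.42 in WT. The authors' deposited table gives Gjb6 a log2 fold change of -1.03, while the limma difference of its levels was -0.22 ± 0.22 (SE). Of 10 neuronal genes 5 had a row, with 1 rise and 3 falls; of 8 microglial genes 5, with 1 rise and 1 fall; of 8 endothelial genes 6, with 3 rises and 2 falls. No marker with a row was listed at 0. The part of these shifts in the enzyme differences was not tested. Smo, the gene of Smoothened, rose and read 10.73 and 10.96 in SmoM2, against 7.12 and 5.75 in WT. Whether reads of the mutant SmoM2 were counted under Smo is not given. Over the listed genes the levels summed to between 469062 and 512833 per sample, and depth is unknown because the table holds no counts.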

How the data were processed

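Libraries were made with a TruSeq RNA kit from total RNA, per the labels' protocols. RSEM, DESeq2 and GRCm38.p6 are named in the submitters' processing notes, without versions or roles. The authors deposited 1 table, filtered by p, with an expression level (a signal scaled for length and library size, TPM or FPKM not stated) for each sample. It also holds the authors' fold change as a ratio, its log2 value, and the authors' p-value and adjusted p-value, which is scaled to 57010 tests. Columns were tied to samples by the series text.

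From the levels, means and SDs were computed, and limma 3.58.1 (R 4.3.3) was run with a mean-variance trend on log2(level + 1) on 4845 genes whose mean level reached 1, with p adjusted by Benjamini-Hochberg over 57010. This recalculation covers genes selected on the same samples. The scale understates changes of low genes. Its steps were tested on simulated data with larger changes than those of the enzymes and with p adjusted over fewer tests. That test therefore does not show whether changes of the enzymes' size would be called. The exact permutation tests used scipy 1.17.1. Coordinates come from GENCODE M21 (GRCm38), where 5226 identifiers were found and 56 were not. Promoter windows were matched by symbol.

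The 9 members, the gene lists and the ratios were chosen with earlier results of these data known. Genes named are the 9, every called member of the lipid lists, and a few called markers; uncalled list members in the text, such as Hsd17b7 and Insig2, were named after their values were seen. The pathway lists are not complete, and some of their genes are not reported here. Alternatives were other pseudocounts, filters, scalings and thresholds, a replicate block, and each sample left out.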

Additional observations from a re-analysis of the deposited data

How the results depend on the processing

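Of the 9 enzymes, the adjusted p in the authors' deposited table called 5 at a threshold of 0.05, 6 at 0.1, 3 at 0.01 and 0 by the limma recalculation, where 6 of 4845 genes in all were called. That recalculation called 0 of the 9 under every alternative, and its log2 differences kept the direction of all 9 in each of them, with 7 above 0. Leaving out 1 sample gave ranges of 0.61 to 0.83 for Mvd, 0.47 to 0.67 for Mvk, 0.46 to 0.58 for Dhcr7, -0.48 to -0.26 for Sc5d and -0.53 to -0.13 for Idi1. Groups did not overlap for 8 enzymes on the deposited levels, beside 84.7% of all listed genes. Under each of 3 other scalings the groups of Idi1, which overlapped on the deposited levels, stood apart too. The share of all listed genes is not given for those scalings, so the change says nothing about the enzymes as a set. The ratio of Sqle over Fdps changed sign with a sample left out: its log2 difference of -0.04 ranged from -0.136 to 0.057, at 0.057 without WT replicate 2 and 0.0078 without SmoM2 replicate 2. The other 4 ratios kept their direction. The groups share replicate numbers, but nothing in the labels ties same-numbered samples. Deviations of same-numbered samples correlated at -0.093 over 4845 genes. With a replicate block limma called 20 genes rather than 6 and 0 of the 9, with Mvd at 0.72. With 2 samples a group, precision is limited by sample number, and read depth is unknown.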
